A study of Mus musculus with 11 samples.

Results

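Messenger RNA of 10 stress-response genes was described in follicular regulatory T (Tfr) cells and in other CD4 T cells of the mouse lymph node. The genes are the heat shock chaperones Hspa1a, Hspa1b, Hspa8, Hsp90aa1, Hsp90ab1, Dnaja1, Dnajb1, Hsph1 and Hspd1, and Ddit4, an inhibitor of the growth kinase complex mTORC1. They were chosen by name, with earlier results of these data known. All 10 were found among the 29224 genes of the bulk table and among the 31053 genes of the single-cell matrix. The study holds 11 samples in 8 groups from draining lymph nodes of C57BL/6 mice and asks how the secreted protein Sostdc1 acts on Tfr cells. Values of 3 samples were used: a bulk library labelled as Tfr cells of Sostdc1-knockout (KO) mice, a bulk library labelled as Tfr cells of wild-type (WT) mice, and a single-cell library of CD4 T cells sorted for CD44. The other 8 samples were not analysed here.

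The KO library is labelled homozygous for the Sostdc1 allele, and the WT library is labelled WT. Per the labels, Tfr cells of both were sorted on CXCR5, PD-1 and high GITR. The single-cell mice were heterozygous for a Sostdc1-EGFP reporter allele. The labels give no age or treatment for these 3 samples and do not say whether animals were pooled. With 1 library in each group, differences have no replicate check, and no p-value is given. Intervals are exact 95% intervals, the limit given for a count of 0 is that of 3 counts, and both cover counting error only. Treg cells are regulatory T cells that depend on the transcription factor Foxp3, and Tfr cells are Treg cells of the B cell follicle, marked by the receptors CXCR5 and PD-1. Follicular helper T (Tfh) cells have these receptors without Foxp3 and help B cells.

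As background, chaperones bind unfolded proteins and help them to fold. HSP70 proteins work in cycles of ATP use that J-domain proteins start and HSP110 proteins help to end, and they pass many clients on to HSP90. Hspa1a and Hspa1b are the inducible HSP70 genes, which the heat shock factor HSF1 switches on through heat shock elements when proteins are damaged. Hspa8 and Hsp90ab1 are the constitutive cytosolic forms, made in unstressed cells as well. Ddit4 is induced by hypoxia, glucocorticoids, energy shortage and the integrated stress response, and its protein releases the TSC complex to restrain mTORC1.

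The bulk libraries held 27777625 counts (labelled KO) and 18076300 counts (labelled WT), and a count of 3 corresponds to 0.108 counts per 1000000 (CPM) in the KO-labelled library and 0.166 CPM in the WT-labelled one. Sostdc1 went against the labels, with 16.5 CPM in the KO-labelled library and 0.221 CPM in the WT-labelled library. Whether the 2 labels are exchanged was not tested, so each direction below follows the labels as given and may not follow genotype. Foxp3 stood at 1164 CPM in the KO-labelled library and 1471 CPM in the WT-labelled library, and Cxcr5 and Pdcd1 were detected in both. The 5 Treg markers, Foxp3 among them, went the other way in sum, with 9207 CPM (labelled KO) and 6844 CPM (labelled WT). The 6 T cell markers summed to 2455 CPM (labelled KO) and 1680 CPM (labelled WT). In both lists 0 markers were lower and 0 higher by at least 2-fold. Xist had 1232 CPM in the KO-labelled library and 2.16 CPM in the WT-labelled library. Y-linked Ddx3y had 0.216 CPM in the KO-labelled library and 197 CPM in the WT-labelled library. By these genes the KO-labelled library looks female and the WT-labelled library male, so sex differs together with the label. None of the 10 genes lies on a sex chromosome. B cell markers summed to 710 CPM in the KO-labelled library and 1340 CPM in the WT-labelled library. Of 4 tested markers, 1 was lower by at least 2-fold (Ighm, 473 CPM labelled KO and 1091 CPM labelled WT) and 1 higher (H2-Aa 5.50-fold). Markers of resting T cells summed to 564 CPM in the KO-labelled library and 986 CPM in the WT-labelled library, with 2 of 6 lower (Klf2 6.70-fold and S1pr1 2.17-fold) and 0 higher. Of 5 follicular markers 1 was higher, the cytokine gene Il21 at 82.8 CPM in the KO-labelled library and 4.09 CPM in the WT-labelled library, and 0 were lower. Myeloid markers summed to 88.8 CPM in the KO-labelled library and 71.8 CPM in the WT-labelled library, with 2 of 3 tested higher (Lyz2 2.94-fold and Xcr1 2.20-fold). Markers of natural killer and CD8 cells summed to 24.9 CPM in the KO-labelled library and 13.1 CPM in the WT-labelled library, with 1 of 2 tested higher (Klrk1 8.05-fold). Mitochondrial genes took 1.29% of counts in the KO-labelled library and 0.772% in the WT-labelled one. Whether these cell markers or mitochondrial share play a part in the differences below was not tested. A part of sex cannot be told apart from the label, and every difference compares 2 libraries, not genotypes.

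The inducible HSP70 genes were about 6-fold lower in the KO-labelled library. Hspa1a (ENSMUSG00000091971) had 265 counts, or 9.54 CPM (8.43 to 10.8), in the KO-labelled library, against 1067 counts, or 59.0 CPM (55.5 to 62.7), in the WT-labelled library. That is a 6.19-fold lower level (5.40 to 7.11), or −2.51 on the scale of log2(CPM + 1), a scale that understates changes of low genes. Hspa1b (ENSMUSG00000090877) had 366 counts, or 13.2 CPM (11.9 to 14.6), in the KO-labelled library, against 1517 counts, or 83.9 CPM (79.8 to 88.2), in the WT-labelled library, a 6.37-fold lower level (5.68 to 7.16). The counting intervals of the libraries did not overlap for either gene. In bulk RNA, fewer cells of a type and less RNA per cell cannot be told apart.

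Hspa1a and Hspa1b are neighbouring genes on chromosome 17 with near-identical transcripts, so the division of reads between them is uncertain and their sum is the firmer measure. The sum was 631 counts, or 22.7 CPM, in the KO-labelled library and 2584 counts, or 143 CPM, in the WT-labelled library, 6.29-fold lower (5.77 to 6.88). Hspa1b took 58.0% of the summed counts (54.0 to 61.9, Clopper-Pearson) in the KO-labelled library and 58.7% (56.8 to 60.6) in the WT-labelled library, so the split between the copies overlapped within counting error.

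The near identity of the copies reaches their promoters. The 250 bases before the start of Hspa1a and Hspa1b are shown because they carry a heat shock element match at the same place, that of Ddit4 because the gene differed as much without such a match, and that of Hsph1 because it has a match and did not differ. All are from RefSeq on GRCm38.p6, on the minus strand, and capitals mark a match to GAANNTTC or TTCNNGAA on either strand.
Hspa1a, chr17:34972157-34972406: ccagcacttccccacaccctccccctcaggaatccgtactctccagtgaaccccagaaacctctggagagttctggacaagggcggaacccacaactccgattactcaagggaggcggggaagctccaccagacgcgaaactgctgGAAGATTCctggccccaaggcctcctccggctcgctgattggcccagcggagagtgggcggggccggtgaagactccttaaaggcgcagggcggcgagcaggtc
Hspa1b, chr17:34959239-34959488: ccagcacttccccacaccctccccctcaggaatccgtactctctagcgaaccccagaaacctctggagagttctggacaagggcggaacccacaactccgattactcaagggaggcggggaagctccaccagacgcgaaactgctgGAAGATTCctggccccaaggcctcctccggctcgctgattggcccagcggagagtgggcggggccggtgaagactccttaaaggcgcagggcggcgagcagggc
Ddit4, chr10:59951771-59952020: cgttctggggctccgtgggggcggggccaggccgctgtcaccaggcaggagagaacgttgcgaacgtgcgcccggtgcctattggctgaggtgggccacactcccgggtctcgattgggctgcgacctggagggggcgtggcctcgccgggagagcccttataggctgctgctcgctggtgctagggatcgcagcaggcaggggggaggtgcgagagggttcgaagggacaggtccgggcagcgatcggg
Hsph1, chr5:149636337-149636586: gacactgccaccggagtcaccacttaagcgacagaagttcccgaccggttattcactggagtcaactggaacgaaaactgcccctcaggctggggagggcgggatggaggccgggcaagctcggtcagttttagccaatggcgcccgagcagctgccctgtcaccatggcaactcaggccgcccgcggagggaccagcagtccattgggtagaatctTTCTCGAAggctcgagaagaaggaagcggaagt

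Windows of 300 bases, which add the first 50 transcribed bases, were available for 7 of the 10 genes and not for Hspa8, Hsp90aa1 and Hsp90ab1. Those of Hspa1a and Hspa1b were identical at 296 of 300 bases. The Hspa1a to Hspa1b differences, counted from 1 at the 5′ end, were C44T, T47C, T249G and C276T, and none falls in the heat shock element match, GAAGATTC, which begins 104 bases before the start. Hsph1 had 3 matches in its first window, 1 before the start and 2 after it, Hspd1 had 3 in its second window, Dnaja1 had 1, and Dnajb1 and Ddit4 had 0. Of 32851 mouse promoter windows of this length, 15.1% hold at least 1 match to either spelling and 1.96% hold at least 2. CCAAT was found on either strand once in each copy of the pair and 2 times in the Ddit4 window, and in 37.4% of all windows. A match is a description of these letters and not a measured binding site.

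Ddit4 (ENSMUSG00000020108) was lower to a like degree. It had 921 counts, or 33.2 CPM (31.1 to 35.4), in the KO-labelled library, against 3908 counts, or 216 CPM (210 to 223), in the WT-labelled library. The level was 6.52-fold lower (6.07 to 7.01), with a log2 ratio of −2.67. Of the 10191 genes that reached 5 CPM in 1 library or both, 49 had a lower log2 ratio than Ddit4, 59 a lower one than Hspa1b and 70 a lower one than Hspa1a.

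**Figure D1:**
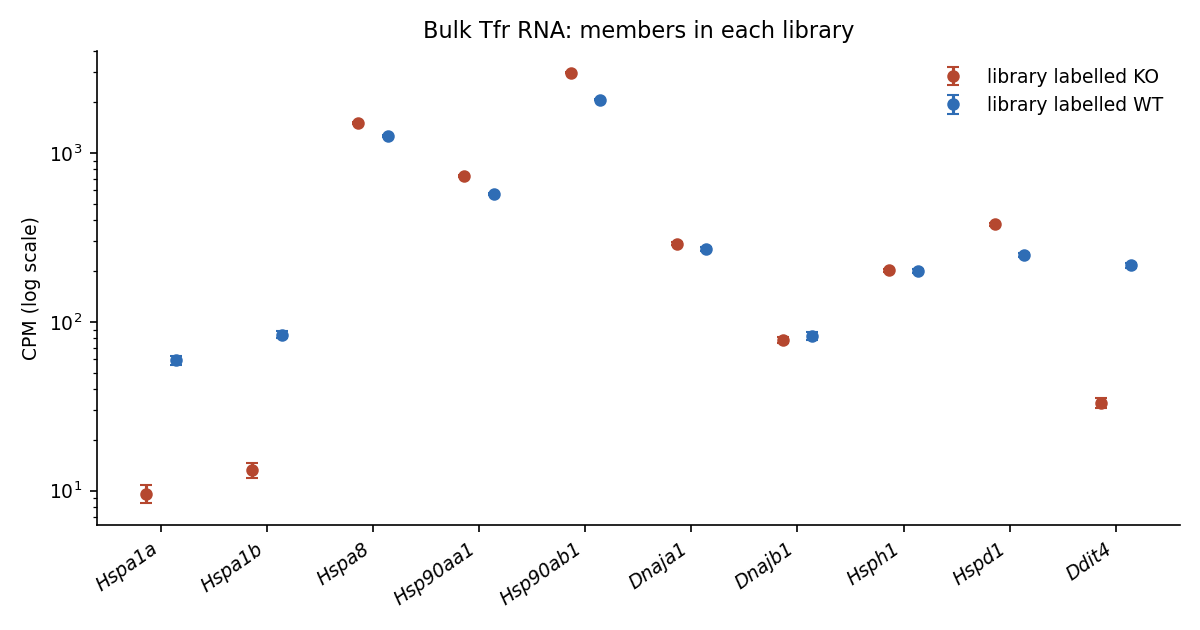
CPM on a log axis of the 10 genes in the KO-labelled library (left point of each pair) and the WT-labelled library (right point), with exact Poisson 95% intervals. Hspa1a, Hspa1b and Ddit4 lie far lower in the KO-labelled library, at 9.54, 13.2 and 33.2 CPM, while the points of both libraries lie close together for each of the other 7 chaperones.

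The constitutive HSP70 and the HSP110 partner did not share this difference. Hspa8, the main cytosolic HSP70 and also the clathrin-uncoating ATPase, had 41729 counts, or 1502 CPM, in the KO-labelled library and 22842 counts, or 1264 CPM, in the WT-labelled library, a ratio of 1.19 (1.17 to 1.21). Hsph1, an HSP110 that exchanges the nucleotide of HSP70 and is itself heat-inducible, stood at 201 CPM in the KO-labelled library and 200 CPM in the WT-labelled library, a ratio of 1.01 (0.965 to 1.05). Its interval includes a ratio of 1, and its lower end of 0.965 is far from the 0.159 of the inducible pair.

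Both cytosolic HSP90 genes were somewhat higher in the KO-labelled library. Hsp90aa1, the stress-responsive form, had 731 CPM in the KO-labelled library and 571 CPM in the WT-labelled library, a ratio of 1.28 (1.25 to 1.31). Hsp90ab1, the constitutive form, had 2982 CPM in the KO-labelled library and 2065 CPM in the WT-labelled library, a ratio of 1.44 (1.43 to 1.46). Both ratios exceed counting error, and both are below 2-fold.

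The J-domain cochaperones were near equal. Dnaja1, an HSP40 that hands clients to HSP70, had 290 CPM in the KO-labelled library and 271 CPM in the WT-labelled library (ratio 1.07, 1.03 to 1.11). Dnajb1, the heat-inducible HSP40 that works with HSP70 in dissolving aggregates, had 77.8 CPM in the KO-labelled library and 82.5 CPM in the WT-labelled library (ratio 0.943, 0.882 to 1.01). The direction of Dnajb1 is not fixed, since other scalings of the libraries put its log2 ratio at 0.07 and 0.14 in place of −0.08. Hspd1, the mitochondrial chaperonin HSP60, was the highest in ratio of the 10, with 379 CPM in the KO-labelled library and 248 CPM in the WT-labelled library (1.53, 1.47 to 1.58). Hspd1 overlaps Hspe1 in the annotation, Dnaja1 overlaps Gm6297 and Mir207, and Hspa8 holds 3 small nucleolar RNA genes. The sources used here do not give the strand use of the counting, so some of their reads could belong to those neighbours.

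Set against the other chaperones, the inducible pair was lower as well. For every 1000 Hspa8 counts there were 15.1 counts of the pair in the KO-labelled library and 113 in the WT-labelled library, a 7.48-fold lower quotient (6.85 to 8.17), which does not depend on how the libraries are scaled. Per 1000 counts of all 7 other chaperones the values were 3.69 in the KO-labelled library and 30.4 in the WT-labelled library, 8.25-fold lower (7.56 to 9.01). With single genes as the denominator the quotient was between 5.93-fold lower (Dnajb1) and 9.60-fold lower (Hspd1), so each choice kept the direction. Over Dnajb1 the difference was smaller than the 6.29-fold of the pair's own CPM, over Hsph1 (6.34-fold) it was about the same, and over the other 5 genes it was larger.

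In all, 3 of the 10 genes were at least 2-fold lower in the KO-labelled library and 0 were higher, where 9.13% of the 10191 genes tested were lower and 2.6% higher by this size. Because the 10 genes were chosen with earlier results of these data known, this count is a description and not a test against that share. The other 7 chaperones had log2 ratios from −0.08 to 0.61, and the median of all genes was −0.04, with quartiles of −0.45 and 0.28. The authors' deposited log2 fold changes of Hspa1a, Hspa1b and Ddit4 were −2.63, −2.67 and −2.70. These were computed from the same 2 libraries and so are no separate check.

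**Figure D2:**
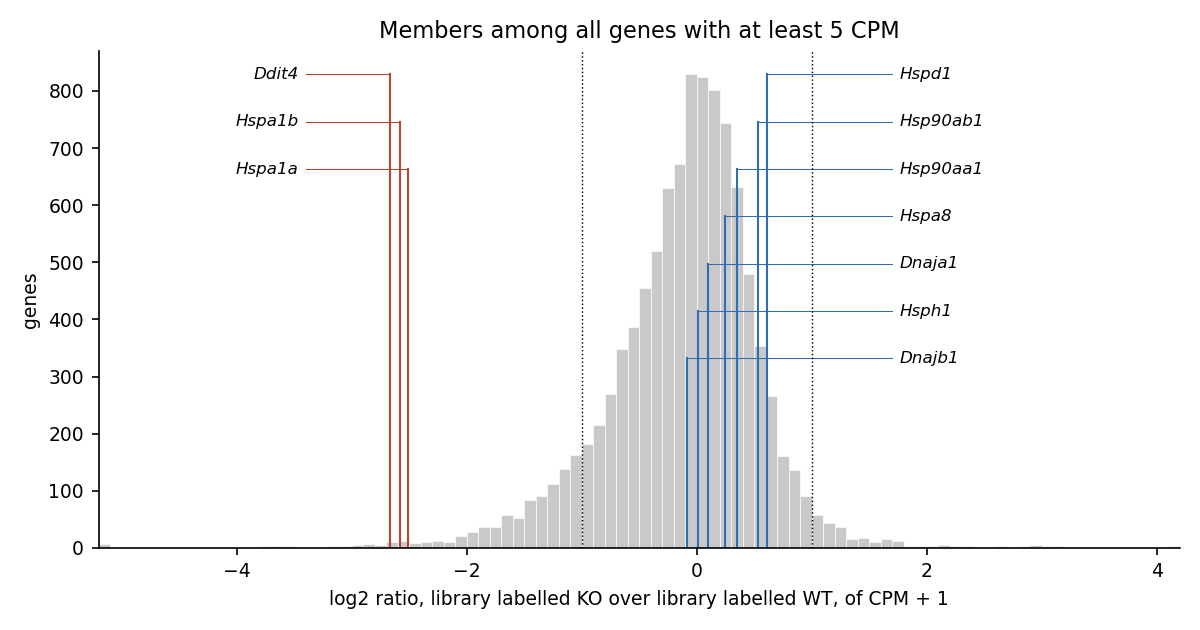
Number of genes by log2 ratio of CPM + 1, library labelled KO over library labelled WT, for all genes that reached 5 CPM in 1 library or both (ratios past the axis ends are drawn in the end bins). Lines mark the 10 genes, and dotted lines mark 2-fold. Ddit4, Hspa1b and Hspa1a stand in the lower tail, between −2.67 and −2.51, and the other 7 stand near the middle.

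The genes that were lower are short. In RefSeq, Ddit4 spans 2.1 kb, Hspa1a 2.80 kb and Hspa1b 2.81 kb. Over all tested genes with a known span (95.9% of them), 17.8% of the 1138 genes of up to 5 kb were at least 2-fold lower in the KO-labelled library, and the share was 12.2%, 10.1%, 6.98% and 5.32% in the successive longer classes. The share at least 2-fold higher was 6.06% in the shortest class. Hspa8 (3.93 kb) and Dnajb1 (4.48 kb) belong to the same shortest class and were not past 2-fold. The part of gene span in the differences was not tested.

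**Figure D3:**
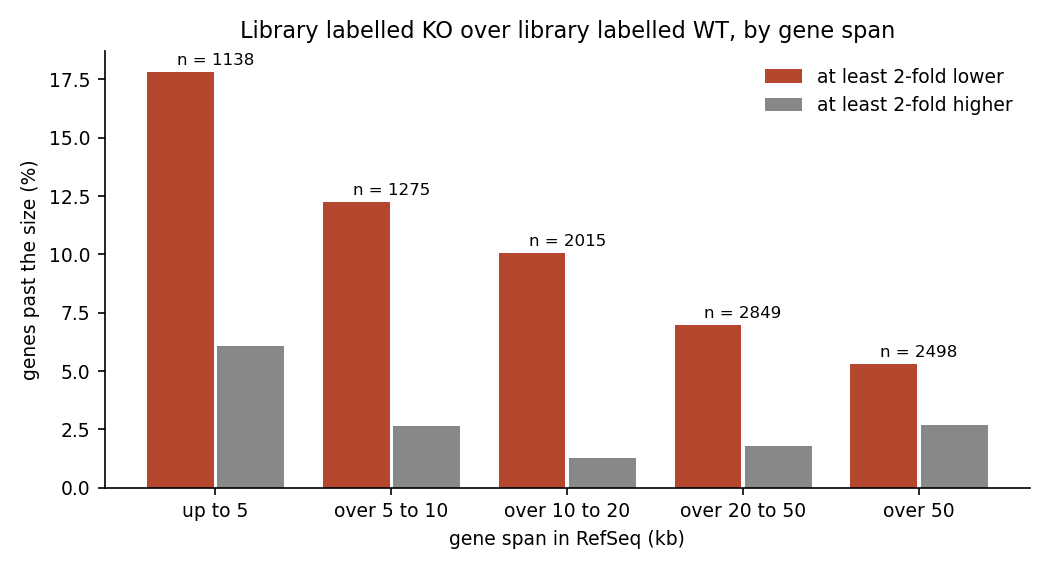
Percent of tested genes at least 2-fold lower (left bar) or at least 2-fold higher (right bar) in the KO-labelled library than in the WT-labelled library, by gene span in kb, with the number of genes in each class. The share of lower genes is 17.8% in the class of up to 5 kb, which holds Hspa1a, Hspa1b, Ddit4, Hspa8 and Dnajb1, and 5.32% in the longest.

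Most related chaperones stayed within 2-fold, where 11.7% of all genes tested were past it in either direction. Of 8 relatives of the HSP70 and HSP110 family, 0 were past 2-fold, with a median log2 ratio of 0.49. Hyou1 and Hspa5 (BiP), chaperones of the endoplasmic reticulum, stood 1.81-fold (1.75 to 1.88) and 1.78-fold (1.75 to 1.82) higher in the KO-labelled library, and Hspa2, a testis-enriched HSP70, 1.92-fold lower (1.54 to 2.38). Of 9 chaperonin genes, 0 were past 2-fold, yet all had a positive log2 ratio, from 0.31 to 0.84. Among them the cytosolic chaperonin subunits Cct3, Tcp1 and Cct8 were 1.79-fold, 1.65-fold and 1.55-fold higher. Of 16 J-domain genes, 0 were past 2-fold, with a median of 0.25. Dnaja3, a mitochondrial member, was 1.64-fold, Dnajb4 1.49-fold and Dnajc3, of the endoplasmic reticulum, 1.43-fold higher.

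In the list of HSP90 relatives and cochaperones, 2 of 14 genes were at least 2-fold lower and 0 higher, with a median log2 ratio of 0.07. With 9.13% of all genes lower and 2.6% higher, that count is near the background. Stub1, which encodes the ubiquitin ligase CHIP that marks chaperone clients for degradation, had 4.46 CPM in the KO-labelled library and 37.9 CPM in the WT-labelled library, 8.49-fold lower (7.0 to 10.4). Hspbp1, a nucleotide exchange factor of HSP70, was 2.16-fold lower (1.94 to 2.40), and Hsp90b1, the HSP90 of the endoplasmic reticulum, 1.63-fold higher. The transcription factors behind the heat shock response did not pass 2-fold. Hsf1, the main one, stood at 65.3 CPM in the KO-labelled library and 72.2 CPM in the WT-labelled library, and Hsf2 at 53.8 CPM (labelled KO) and 75.3 CPM (labelled WT). Of 9 listed heat shock factors, their binding protein and small heat shock proteins, 3 had at least 5 CPM, the other being Hsbp1 at 74.7 CPM (labelled KO) and 55.8 CPM (labelled WT).

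Genes that act around Ddit4 went both ways. Of 12 mTORC1 genes, 2 were at least 2-fold lower and 0 higher (median log2 ratio −0.31), again near the 9.13% of all genes that were lower. Akt1s1, which encodes the mTORC1 inhibitor PRAS40, had 9.72 CPM in the KO-labelled library and 47.3 CPM in the WT-labelled library, 4.87-fold lower (4.24 to 5.60). Sesn1, a sestrin that also restrains mTORC1, was 2.56-fold lower (2.33 to 2.82), and Eif4ebp1, a translation repressor that mTORC1 switches off, 1.85-fold lower. Of 12 genes of the integrated stress and unfolded protein responses, 1 was lower and 1 higher (median 0.43): the transcription factor gene Atf5 was 3.11-fold lower (2.65 to 3.67), Atf3 3.08-fold higher (2.73 to 3.48), and Sesn2, a sestrin induced by that response, 1.72-fold lower.

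No listed target of glucocorticoids or of hypoxia with at least 5 CPM passed 2-fold, which is little different from the 11.7% of all genes past it in either direction. Of 9 glucocorticoid targets 0 were past 2-fold (median −0.22), with Il7r, Cxcr4 and Per1 1.96-fold, 1.88-fold and 1.78-fold lower in the KO-labelled library. Of 8 hypoxia targets 0 were past 2-fold (median 0.06), with Ndrg1 1.58-fold higher and the metabolic genes Pdk1 and Bnip3 1.48-fold and 1.55-fold lower. Immediate early genes, which respond within minutes to stimulation, were the list with the most lower genes: 6 of 17 were at least 2-fold lower and 0 higher, with a median of −0.93, where 9.13% of all genes were lower and their median was −0.04. Junb, an AP-1 subunit, had 56.3 CPM in the KO-labelled library and 1380 CPM in the WT-labelled library, 24.5-fold lower (23.3 to 25.8). Ier2 was 5.36-fold and Jun, another AP-1 subunit, 4.01-fold lower. Junb, Ier2 and Jun are short, at 1.84, 1.52 and 3.19 kb, and 17.8% of all tested genes of up to 5 kb were at least 2-fold lower. The list was also chosen with earlier results of these data known. Whether the inducible pair and Ddit4 were lower together with the immediate early genes for a shared reason was not tested. Some of the list genes named overlap another gene in the annotation, so their counts are less certain. Stub1 overlaps Jmjd8, Atf5 overlaps Nup62 and Il4i1b, Hspa5 overlaps Rabepk, and Hspa2 overlaps 4930426I24Rik. Cct8 overlaps Usp16, Tcp1 overlaps Mrpl18 and Acat3, and Dnajb4 overlaps Fubp1. Akt1s1 overlaps Mir707, Hsf2 overlaps 4930467K11Rik, Dnajc3 overlaps Gm4678, and Bnip3 overlaps Gm18258.

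The single-cell library placed the same genes in single T cells. It held 15002 barcodes, none repeated, and 106127466 unique molecular identifiers (UMIs), with a median of 5673 per barcode. After filters 11757 cells remained, of which 9596 had UMIs of CD3 genes and none of the B cell or myeloid markers used. Gates were set on marker UMIs, and CPM here means UMIs of a gene per 1000000 UMIs of all cells in a gate. The cycling gate (Mki67 and Top2a) held 703 cells, the Tfr gate (Foxp3, Cxcr5 and Pdcd1) 60, the Treg gate (other Foxp3 cells) 1671, the Tfh gate (UMIs of Cxcr5 and of Pdcd1, and none of Foxp3) 610 and the resting gate (set on Ccr7 among its markers, with no UMI of Foxp3, Cxcr5 or Pdcd1) 1883. Cycling cells were set apart first, whatever their UMIs of Foxp3, Cxcr5 or Pdcd1, so the other gates hold none of them. A further 4669 T cells fell in no gate, and 454 B cells served for comparison. Median depth was 18593 UMIs in cycling cells and 5437 to 7488 in the other T cell gates.

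Marker sums followed the names of the gates, though each list includes gating genes. Treg markers summed to 2380 CPM in the Tfr gate, 2627 in the Treg gate, 499 in the Tfh gate and 200.4 in the resting gate. In the cycling gate, which can include Foxp3 cells, they summed to 880 CPM. Follicular markers summed to 634 CPM in the Tfr gate, 66.8 in the Treg gate, 972 in the Tfh gate and 16.7 in the resting gate. B cell markers summed to between 285 and 1023 CPM in the T cell gates, against 22174 CPM in B cells. Erythroid and platelet markers summed to 1181 CPM in the Treg gate and to 3.93 to 6.62 CPM in the other T cell gates, because 2 cells of the Treg gate held 12194 of its 12232 such UMIs. Folds without these 2 cells gave the same counts of genes past 2-fold.

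The inducible pair had few UMIs in these cells. Hspa1a and Hspa1b together had 75 UMIs in 9596 T cells, 1.08 CPM (0.849 to 1.35), and 0.636% of T cells had at least 1 (0.487 to 0.816). The cycling gate had 7 UMIs, the Treg gate 11, the resting gate 20 and the ungated T cells 37. The Tfr and Tfh gates had 0, which allows up to 5.91 CPM, or a UMI in 5% of cells, in the small Tfr gate and up to 0.621 CPM, or a UMI in 0.492% of cells, in the Tfh gate. These limits are for cells with a UMI, since a cell with little of the RNA may give none. In the Treg gate 5 of the 10 Hspa1b UMIs came from 1 cell. B cells had 5 UMIs, or 1.83 CPM (0.595 to 4.27), and 0.881% of them had a UMI, so the share in T cells was no higher than in B cells at a median of 4698.5 UMIs per cell. No cell type known to lack these genes was in the data to set a background from free RNA. How reads that fit both near-identical copies were counted was not examined, so the UMIs of the pair may be too few.

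The few UMIs of the pair set a weak order. They gave 0.487 CPM (0.196 to 1.0) in cycling cells, 1.06 CPM (0.530 to 1.90) in Treg cells and 1.60 CPM (0.980 to 2.48) in resting cells. The Tfh gate, with 0 UMIs and a limit of 0.621 CPM, also lay under resting cells, and its order against cycling cells is not set. The Tfr gate, with a limit of 5.91 CPM, cannot be placed. Cycling over resting cells gave a fold of 0.303 (0.108 to 0.747), with 7 against 20 UMIs, and Treg over resting cells 0.662 (0.286 to 1.45). The 20 UMIs of the resting gate lay in 13 cells, and UMIs of 1 cell are not independent, so these intervals are too narrow. With T cells thinned to 3000 UMIs (696 had fewer and were dropped), 0 of 700 cycling cells (which allows a share of up to 0.429%) and 7 of 1846 resting cells (0.379%, 0.153 to 0.780) had a UMI. The bulk libraries hold the pair at 22.7 CPM (labelled KO) and 143 CPM (labelled WT). Those values count fragments along transcripts of sorted Tfr cells from other mice, so the levels are set side by side and not compared.

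Hspa8 and Hsp90ab1 were the most abundant of the 10 genes in every gate, and both were highest in cycling cells. Hspa8 stood at 1927 CPM in cycling, 1162 in Tfr, 1362 in Treg, 1046 in Tfh and 1194 in resting cells. It had a UMI in 96.7% to 99.9% of cells of these gates. Tfh cells were the lowest of these gates by CPM (0.876-fold of resting cells, 0.849 to 0.905), but that place is not firm. With only cells under 5% mitochondrial UMIs, which kept 214 Tfh cells, the direction turned, with 1265 CPM in Tfh and 1229 CPM in resting cells. After thinning, the mean was 2.83 UMIs in Tfr and 2.84 in Tfh cells.

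The HSP90 genes varied more. Hsp90aa1 stood at 1022 CPM in cycling, 380 in Tfr, 323 in Treg, 392 in Tfh and 243 in resting cells, 4.2-fold higher in cycling than in resting cells (4.04 to 4.37). The constitutive Hsp90ab1 stood at 2518 CPM in cycling, 1602 in Tfr, 1321 in Treg, 1540 in Tfh and 1083 in resting cells, 2.32-fold higher in cycling than in resting cells (2.28 to 2.37). The values of Tfr and Tfh cells overlapped within counting error for both genes, and both gates stood above resting cells.

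Hspd1 was likewise highest in cycling cells, with 318 CPM in cycling, 169 in Tfr, 129 in Treg, 131 in Tfh and 102 in resting cells. It was 3.13-fold higher in cycling than in resting cells (2.94 to 3.33). The HSP110 gene Hsph1 was low, with 40.3 CPM in cycling, 25.6 in Tfr, 20.8 in Treg, 29.8 in Tfh and 16.8 in resting cells, so it stayed under the 50 CPM needed for a size call. The J-domain genes were the most even. Dnaja1 lay between 259 CPM (resting) and 332 CPM (cycling), and Dnajb1 between 39.4 CPM (resting) and 52.2 CPM (cycling), with all non-cycling gates overlapping for Dnajb1.

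Of the 6 genes of the group with at least 50 CPM in at least 1 of the 2 gates, 3 were at least 2-fold higher in cycling than in resting cells, namely Hsp90aa1, Hspd1 and Hsp90ab1. This stands beside a background of 29.4% of 2950 genes that were higher and 5.9% that were lower by this size, and beside a median fold of 1.46 over all genes. Hspa8 (1.61-fold), Dnajb1 (1.32-fold) and Dnaja1 (1.28-fold) lay near that median. Hsp90ab1 is close to the limit: it was 1.93-fold higher with cells thinned to 3000 UMIs and 1.98-fold higher by a mean over cells. The cycling gate can include Foxp3 cells and the resting gate cannot. Of 5 Treg markers, Foxp3 among them, 5 were at least 2-fold higher in cycling than in resting cells. Whether this difference in make-up plays a part in the folds was not tested.

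**Figure D4:**
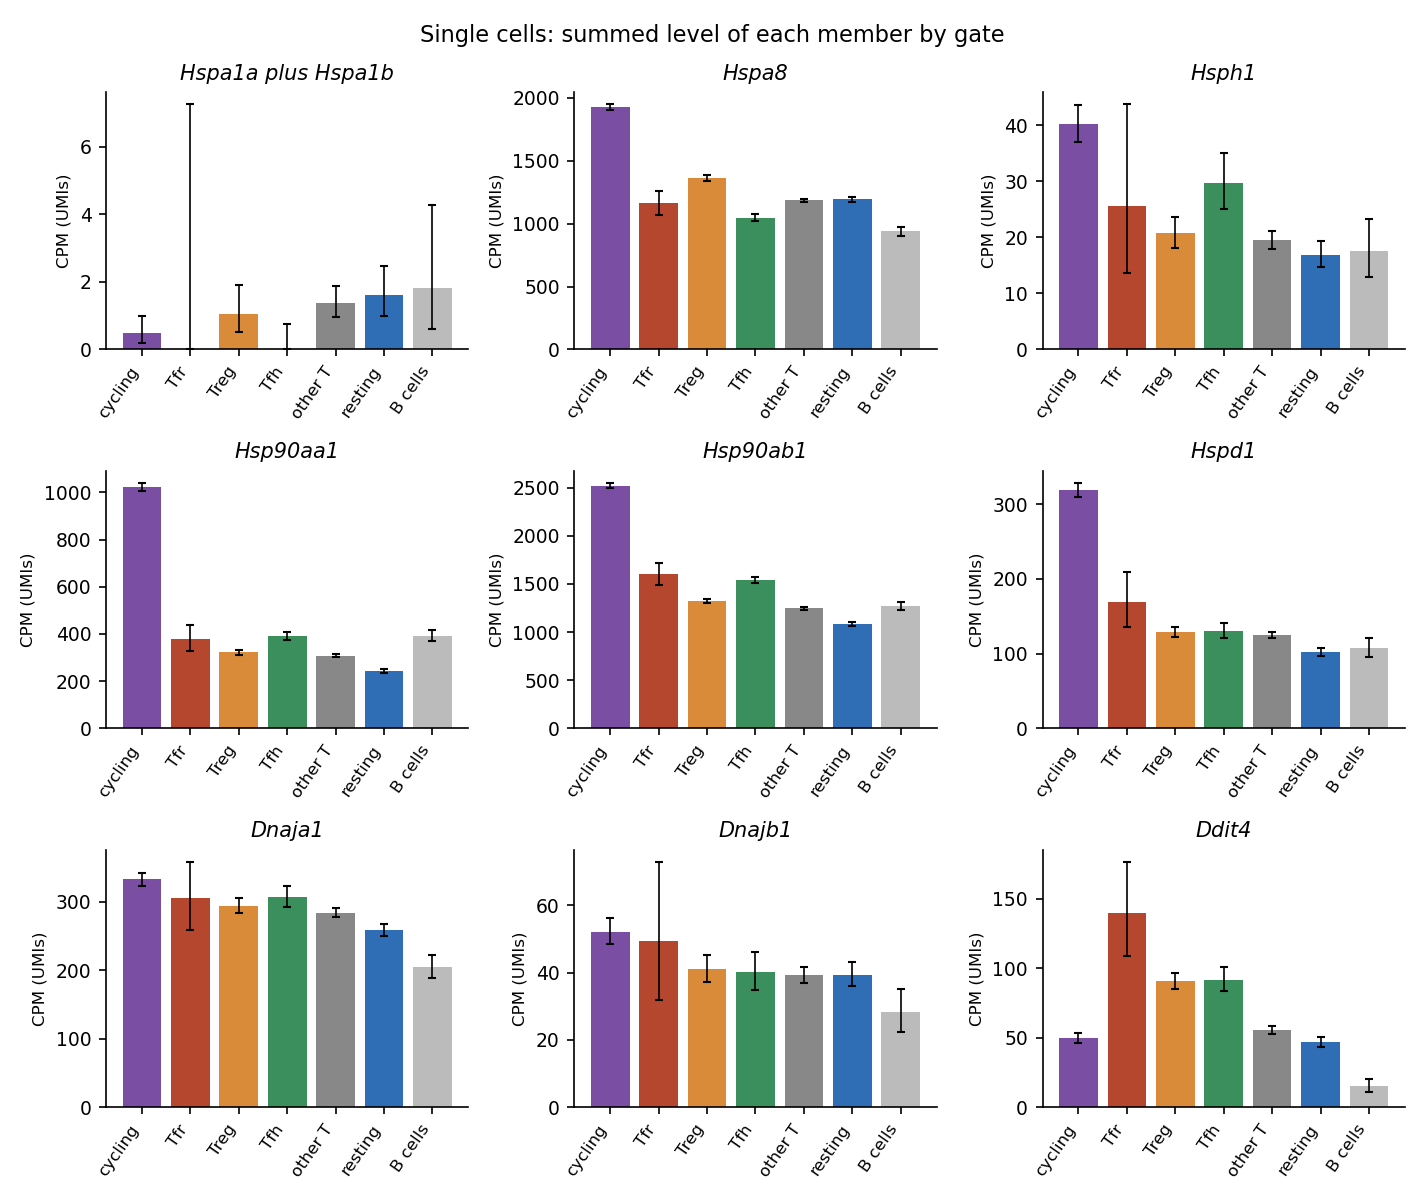
CPM of UMIs for the summed inducible pair and each of the other 8 genes in the cycling, Tfr, Treg, Tfh, other T, resting and B cell gates, with exact Poisson 95% intervals of summed UMIs. Axes differ between panels and start at 0. Hsp90aa1, Hsp90ab1, Hspd1 and Hspa8 are highest in cycling cells, Ddit4 is highest in Tfr cells, and the pair is near 0 in each gate.

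No tested gene of the group passed 2-fold in the other comparisons, and the inducible pair was under the 50 CPM needed for a test. In Tfh over resting cells 0 of 6 tested genes did, where 11% of 2812 genes were at least 2-fold higher and 2.03% lower. In Treg over resting cells 0 of 6 did, where 9.7% of 2669 genes were higher and 1.09% lower, and in Tfr over Treg cells 0 of 6 did, where 1.83% of 2891 genes were higher and 1.28% lower. After Ddit4, the highest fold of the 6 tested genes in Tfh over resting cells was that of Hsp90aa1, 1.61 (1.52 to 1.71), against a median of 1.32 over all genes. Hsph1, under 50 CPM and so not tested, had 1.77 (1.42 to 2.20).

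Ddit4 had another order than the chaperones. It stood at 140 CPM (109 to 176) in Tfr, 91.9 CPM (83.6 to 101) in Tfh, 90.7 CPM (85.0 to 96.7) in Treg, 55.9 CPM (53.1 to 58.7) in ungated T, 49.7 CPM (46.1 to 53.4) in cycling and 46.8 CPM (43.1 to 50.8) in resting cells. B cells had 15.4 CPM (11.1 to 20.8). Tfh and Treg cells overlapped within counting error, as did cycling and resting cells, and B cells lay below all T cell gates.

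Ddit4 was 1.96-fold higher in Tfh than in resting cells (1.73 to 2.22) and 1.94-fold higher in Treg than in resting cells (1.75 to 2.15), both just under 2-fold and with intervals that include it. It was 1.54-fold higher in Tfr than in Treg cells (1.19 to 1.96), from 71 UMIs in 60 Tfr cells. In cycling over resting cells the fold was 1.06 (0.949 to 1.18), under the 50 CPM needed for a call. This fold is not firm: it was 1.34 with cells thinned to 3000 UMIs and 1.21 by a mean over cells, both above that interval.

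Depth moves the shares of cells more than the CPM. A Ddit4 UMI was found in 56.7% of Tfr (43.2 to 69.4), 43.3% of Tfh, 35.7% of Treg, 48.8% of cycling and 23.9% of resting cells, and in 8.59% of B cells. With each cell thinned to 3000 UMIs the shares were 28.8% of Tfr (17.8 to 42.1), 25.2% of Tfh (21.8 to 28.9), 22.7% of Treg (20.6 to 24.8), 13.9% of cycling (11.4 to 16.6) and 11.7% of resting cells (10.3 to 13.3), and 5.29% of B cells (3.34 to 7.90). After thinning, the intervals of Tfr, Tfh and Treg cells overlapped, and so did those of cycling and resting cells. The fold of Tfr over Treg cells was 1.13 after thinning.

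**Figure D5:**
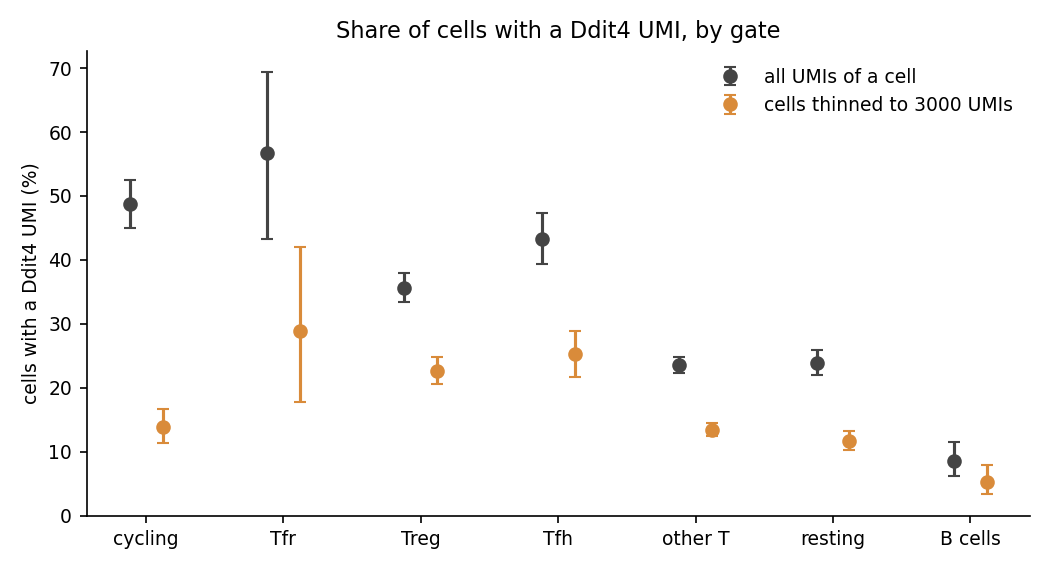
Percent of cells with at least 1 Ddit4 UMI in each gate, with exact 95% intervals, from all UMIs of a cell (left point) and with cells thinned to 3000 UMIs (right point). Thinning brings the deeply sequenced cycling cells from 48.8% to 13.9%, next to resting cells, while Tfr, Tfh and Treg cells stand at 28.8%, 25.2% and 22.7%.

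Some of the chaperones varied together across cells to a small degree, and the inducible pair, Dnajb1 and Ddit4 hardly with any other gene. Correlations were taken over 8900 T cells thinned to 3000 UMIs, after removing gate means. They are descriptions over cells of 1 library that share depth and free RNA. The highest Pearson values were 0.175 between Hsp90ab1 and Hsp90aa1, 0.172 between Hsp90ab1 and Hspa8, 0.169 between Hspd1 and Hsp90ab1 and 0.151 between Hspd1 and Hsp90aa1. Dnajb1 had values between −0.017 (Ddit4) and 0.02 (Hspa1b). Hspa1a with Hspa1b, from very few UMIs, had −0.0015, and 0.062 with cells thinned to 2000 UMIs. Ddit4 had values between −0.017 (Dnajb1) and 0.001 (Hspa1b) with the other 9 genes. Dnajb1 and Ddit4 had means of 0.126 and 0.194 UMIs per thinned cell, and low counts pull such values toward 0.

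Of 5448 genes with a UMI in at least 5% of these cells, those most like Hspa8, leaving out the group itself, were Npm1, a nucleolar histone chaperone (0.162), and the ribosomal protein genes Rps2, Rpl41, Rplp0 and Rpl7a (0.138 to 0.131). Hsp90ab1 ranked above all of them. Those most like Ddit4 were Actg1, a cytoplasmic actin (0.099), the calcium-binding proteins S100a4 and S100a6, the protease granzyme B (Gzmb) and the glutaredoxin Glrx (0.097 to 0.090). For the inducible pair, with 30 UMIs after thinning, the leading values (Mre11a 0.070, Mrps22 0.057, Ruvbl2, Arhgap5 and Pcca 0.048 to 0.045) rest on too few UMIs to read.

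Cell-to-cell spread was described with differences between gates left in. In T cells thinned to 3000 UMIs the Fano factor (variance over mean, 1 for counting noise alone) was 2.26 for Hsp90ab1, 1.74 for Hspa8, 1.67 for Hsp90aa1, 1.38 for Hspd1 and 1.21 for Ddit4. It was 1.11 for Dnaja1, 1.03 for Hsph1 and 1.01 for Dnajb1, close to counting noise. Mean UMIs per thinned cell were 3.66 for Hsp90ab1 and 3.58 for Hspa8, against 0.126 for Dnajb1 and 0.0573 for Hsph1. At equal relative variation a rarer gene has a Fano factor closer to 1, so these values do not rank the genes by spread alone. The 10% of cells with the most UMIs of a gene held 24.5% of Hspa8, 27.3% of Hsp90ab1, 39.4% of Hsp90aa1, 52.4% of Hspd1 and 67.9% of Ddit4 UMIs, shares that also grow as a gene becomes rarer.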

How the data were processed

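RNA was measured in 2 bulk libraries and 1 single-cell library, and groups were taken from the labels. The name of the WT count column adds a number that the sample title lacks, and the column was matched to the only WT Tfr RNA sample. Members and lists were chosen with earlier results of these data known. Per the labels, an NEBNext Ultra kit made the bulk libraries, and 10x Genomics 3′ chemistry the single-cell library. Per the submitters' processing notes the tools include TopHat, Cufflinks, Seurat 2 and Cell Ranger 2.1.0, while the matrix names version 3.1.0 per the file headers. The deposited bulk table holds raw counts per gene, the authors' CPM, and the authors' fold (ratio), log2 fold change and p-values. The deposited p-values, made from 1 library a group, were not used, and the sources used here do not give the counter, strand setting or build of the table. The deposited matrix holds UMI counts.

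CPM were computed here from library totals, with a pseudocount of 1 for log2 ratios and a size rule of at least 2-fold among genes with at least 5 CPM in 1 library (50 CPM in 1 of 2 gates for single cells). For 13 symbols on several lines, 1 line was used. Cells needed 500 genes and under 10% mitochondrial UMIs, which left 13190. A doublet caller marked 0 cells, so the 10% with the highest scores and 327 cells with both B and T cell UMIs were removed, in all 1433. Intervals are exact conditional binomial for folds, Poisson for levels and Clopper-Pearson for shares; bulk reads carry no molecular identifiers, so they are not independent molecules. Named genes were the 10 members, the label checks, up to 3 genes per list with the largest bulk ratio and at least 5 CPM, and the 5 genes most like a member; genes past 2-fold in single cells were named after their values were seen. A further marker gene of the resting gate is not reported here. RefSeq (GRCm38.p6) gave spans, neighbours and promoters. Steps were tested on simulated data. Scalings used edgeR 4.0.16 and DESeq2 1.42.0 (size factors alone, no test), and the rest Python 3.11.15, scanpy 1.11.5 and SciPy 1.17.1.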

Additional observations from a re-analysis of the deposited data

How the results depend on the processing

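Hspa1a, Hspa1b and Ddit4 were at least 2-fold lower in the KO-labelled library under all 8 alternatives of scaling, pseudocount, filter and fold, always 3 of 10 genes, and 0 were higher except 1, Hspd1, at 1.5-fold. Scaling by a trimmed mean (TMM) moved the median log2 ratio of all genes by 0.15 and median-of-ratios scaling by 0.22, so Dnajb1 turned positive; higher genes were then 37.6% and 45.9% of those past 2-fold, against 22.2% by library totals. The summed pair had a log2 ratio of −2.45 with TMM, −2.38 with median of ratios and −2.42 with a pseudocount of 5 CPM. Its quotient was 7.48-fold lower over Hspa8, 8.25-fold over all 7 other chaperones, 9.09-fold over Hsp90ab1, 6.74-fold over Dnaja1, 5.93-fold over Dnajb1, 6.34-fold over Hsph1 and 9.60-fold over Hspd1.

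In single cells, 1 gene in place of 0 was at least 2-fold higher in Tfh over resting and in Treg over resting cells when cells were thinned or gates needed 2 UMIs of each marker. That gene was Ddit4, at 2.34 and 2.62 in Tfh and at 2.24 and 2.38 in Treg cells. In Tfr over Treg cells 1 gene, Dnajb1, passed with 2 UMIs, where the Tfr gate held 2 cells. Cycling over resting cells gave 3 genes, or 2 when thinned or by cell means. The setting without cells rich in erythroid or platelet UMIs was chosen after seeing the data. With under 5% mitochondrial UMIs 214 of 610 Tfh cells remained, and the fold of Hspa8 in Tfh over resting cells turned to 1.03, against 0.876 with all of them. Of 252 alternative folds of single genes, 190 lay inside the counting interval of the main value and 62 outside it. No paired analysis was possible because the groups compared have 1 library each. With 1 library a group, leaving one out was not possible either. Depth limits the inducible pair in single cells and any statement on the 60 Tfr cells.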

Other observations

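Cochaperones of HSP90 stood higher in cycling cells together with the HSP90 genes. Of 10 tested relatives and cochaperones, 7 were at least 2-fold higher in cycling than in resting cells and 0 lower, where 29.4% of all genes tested were higher and 5.9% lower. Their median fold was 2.24, against 1.46 over all genes. Hsp90b1, the HSP90 of the endoplasmic reticulum, stood at 486 CPM in cycling and 124 CPM in resting cells, Stip1, which links HSP70 to HSP90, at 124 CPM in cycling and 37.9 CPM in resting cells, and the immunophilin Fkbp4 at 150 CPM in cycling and 58.3 CPM in resting cells. Of 8 tested chaperonin genes 2 were higher (Cct3 and Tcp1), of 4 HSP70 relatives 2 (Hspa5 and Hspa14) and of 9 J-domain genes 2 (Dnajc2 and Dnajb11), counts that do not stand out from 29.4% of all genes. Hspe1, the partner of Hspd1, stood at 503 CPM in cycling and 393 CPM in resting cells.

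In Tfh over resting cells few related chaperones passed 2-fold: 1 of 4 HSP70 relatives, 1 of 10 HSP90 relatives and cochaperones, 1 of 9 J-domain genes and 0 of 8 chaperonins were higher and 0 lower. Over all genes tested 11% were higher and 2.03% lower, so these counts are near the background. Hspa5 stood at 419 CPM in Tfh and 174 CPM in resting cells, St13, an HSP70-interacting cochaperone, at 189 CPM in Tfh and 81.7 CPM in resting cells, and Dnajc1, a J-domain protein of the endoplasmic reticulum, at 121 CPM in Tfh and 52.0 CPM in resting cells. Lists related to Ddit4 went both ways. Of 2 tested hypoxia targets, Egln3 was higher, with 84.9 CPM in Tfh and 4.73 CPM in resting cells, and Pdk1 lower, with 49.3 CPM in Tfh and 101 CPM in resting cells. Of 4 tested glucocorticoid targets, Cxcr4 was higher, with 50.3 CPM in Tfh and 5.61 CPM in resting cells. Tsc22d3 was lower, with 13.9 CPM in Tfh and 81.3 CPM in resting cells, and so was Il7r, also on the list of resting markers, with 53.4 CPM in Tfh and 277 CPM in resting cells. Of 4 mTORC1 genes, Txnip, an arrestin that limits glucose uptake, was lower, with 81.1 CPM in Tfh and 179 CPM in resting cells, and 0 were higher.

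Of the barcodes left out, those removed as doublets had more of the inducible pair than the T cells kept. The 1433 removed had 33 UMIs, or 2.12 CPM (1.46 to 2.98), against 1.08 CPM (0.849 to 1.35) in the T cells kept. The intervals do not overlap, but UMIs of 1 barcode are not independent, so they are too narrow. A UMI of the pair was found in 1.40% of the removed barcodes. The removed barcodes were not gated to T cells, and 327 had both B and T cell UMIs. Median depth was 8914 UMIs per removed barcode and 5881 per T cell kept. The 977 barcodes with at least 10% mitochondrial UMIs had 2 UMIs of the pair, or 0.758 CPM (0.0918 to 2.74), which overlaps the T cells kept. The 835 with under 500 genes had 0, at a median of 704 UMIs per barcode. Ddit4 stood at 43.6 CPM in the high-mitochondrial barcodes and 61.3 CPM in the T cells kept.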
